A study of Homo sapiens with 6 samples.

Results

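The contractile actin cytoskeleton genes described here are ACTA2, TAGLN, MYL9, CNN1, CNN2, TPM1, TPM2, CALD1, ACTN1 and FLNA. They were found by symbol in the table of read counts, and all 10 were present among its 42656 genes. Of these, 9 had enough counts to be tested beside 15679 genes in all, and CNN1 did not. RNA was measured in TOV21G, a human cell line established from an ovarian clear cell carcinoma, into which short hairpin RNAs were carried by lentivirus. The shMEX3A cells (3 libraries) received the hairpin TRCN230492 against MEX3A, which encodes an RNA-binding protein with a RING domain, and their genotype is labelled as MEX3A knockdown. The shCtrl cells (3 libraries) received the scrambled hairpin TRC2-Scramble_ASN0003, and their genotype is labelled WT. Cells of both groups grew in medium with 15% serum, were kept to at most 25 passages, and were harvested for RNA on day 3 after transduction at a multiplicity of infection of 50. Each group rests on 1 hairpin in 1 cell line. Nothing in the labels says whether the libraries of a group came from separate cultures, and p-values therefore reflect only how far these libraries scatter, which may be technical.

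In non-muscle and smooth muscle cells, contractile force comes from bundles of actin filaments pulled by myosin II. Tropomyosins, caldesmon and calponins lie along the filament and set which myosins and regulators reach it, alpha-actinins and filamins tie filaments to each other, and the regulatory light chain of myosin switches the motor on when it is phosphorylated. ACTA2, TAGLN and CNN1 are classical markers of smooth muscle cells and myofibroblasts, and many genes of this group are known targets of serum response factor (SRF), which binds CArG boxes in their promoters together with myocardin-related factors that sense the pool of free actin. The one comparison of the design, shMEX3A over shCtrl, asks how expression differs when MEX3A is depleted.

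Library totals ran from 34662635 to 48228216 counts. MEX3A itself was at 19.6, 21.0 and 22.2 CPM (counts scaled to a common library total by TMM) in the shMEX3A libraries, against 68.8, 70.7 and 67.6 CPM in shCtrl, a log2 fold change of -1.72 (SE 0.046, adjusted p = 1.52e-28, edgeR quasi-likelihood test with Benjamini-Hochberg adjustment over all tested genes, as for every adjusted p here). The list of 9 clear cell carcinoma markers had 2 under 1 CPM in every library, NAPSA and LEFTY1, and summed to 3300 to 3453 CPM in shMEX3A and 4737 to 4908 CPM in shCtrl. Of its 8 tested genes 4 were higher in shMEX3A, TFPI2 (log2 fold change 3.13, adjusted p = 1.89e-40), RBPMS (0.82, adjusted p = 7.81e-22), PAX8 (0.61, adjusted p = 3.95e-20) and NAPSA (0.80, adjusted p = 0.0264, and 0.0653 by DESeq2). The other 4 were lower, ANXA4 (-1.61, adjusted p = 8.16e-33), GPC3 (-1.26, adjusted p = 7.18e-12), SPP1 (-0.98, adjusted p = 2.68e-17) and VCAN (-0.49, adjusted p = 9.89e-18). Beside this, 34.0% of all tested genes were called higher and 35.6% lower at an adjusted p under 0.05. Mitochondrially encoded genes took 4.003% ± 0.151 of all counts in shMEX3A and 2.21% ± 0.0718 in shCtrl (SD, n = 3 each). With those genes left out of the fit, no call among the contractile genes changed.

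Of the 9 tested contractile genes, 8 were higher in shMEX3A at an adjusted p under 0.05 and TPM2 did not pass. None passed as lower, with 0 also at an unadjusted p under 0.05 and 0 by DESeq2 and limma voom. Over all 15679 tested genes 69.7% passed in either direction, 34.0% higher and 35.6% lower. ACTA2, TAGLN and ACTN1 were at least 2-fold higher, as were 6.95% of all tested genes. The median log2 fold change was 0.67 over the 9 tested contractile genes and -0.01 over all tested genes. In 8 of the 9 tested contractile genes, all but TPM2, each shMEX3A library lay above each shCtrl library, which held for 35.4% of all tested genes. These are the 8 genes called higher from the same libraries, so this adds no separate support to the calls.

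**Figure D1:**
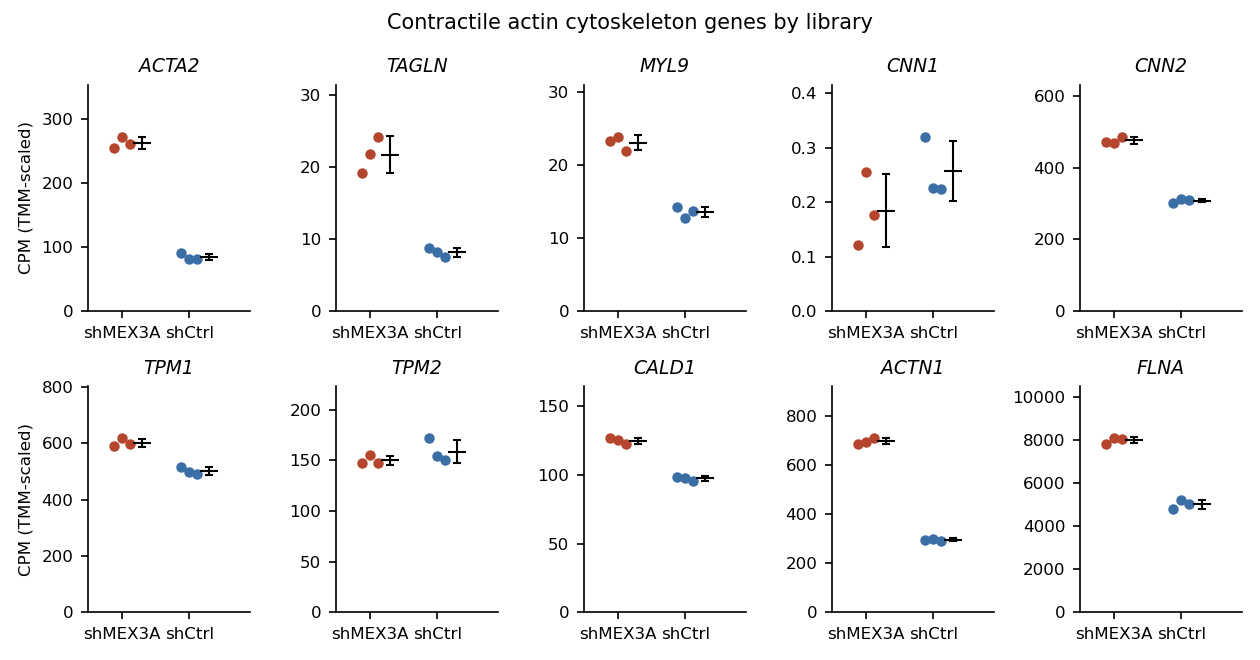
Level of each contractile gene in CPM (TMM-scaled, axis from 0) in the 3 shMEX3A libraries (red points, left) and the 3 shCtrl libraries (blue points, right), with the mean and SD of each group in black. The groups are fully apart in 8 panels, while those of TPM2 and CNN1 overlap.

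Together the 10 genes took 1.02% ± 0.0120 of all counts in shMEX3A and 0.662% ± 0.0224 in shCtrl (SD, n = 3 each, two-sided exact permutation p = 0.1, the smallest that 3 against 3 libraries can give). Most of this was FLNA. Without FLNA the other genes took 0.231% ± 0.00204 in shMEX3A and 0.150% ± 0.00212 in shCtrl (exact permutation p = 0.1). In bulk RNA, a change in the number of cells that express a gene and a change in RNA per cell cannot be told apart.

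ACTA2, which encodes smooth muscle alpha-actin, lies on the minus strand at chr10:88935074-88991339 (GRCh38, GENCODE 29). It was at 255, 272 and 261 CPM in the shMEX3A libraries, against 89.8, 81.0 and 81.7 CPM in shCtrl. The lowest shMEX3A library stood far above the highest shCtrl library. ACTA2 rose 3.12-fold (log2 fold change 1.64, SE 0.037, adjusted p = 1.47e-26), the largest rise among the contractile genes and the 331st of all tested genes by log2 fold change. Exons of FAS and ACTA2-AS1, both on the opposite strand, cover 30.1% of its exon bases, and the strand setting of the counting is not given in the sources used here, so reads of these genes cannot be told apart there. FAS, a death receptor gene, was lower in shMEX3A (61.7 ± 2.88 CPM, against 72.8 ± 2.10 CPM in shCtrl, log2 fold change -0.24, adjusted p = 1.25e-06), and ACTA2-AS1 had 10 to 32 counts in each library.

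The promoter of ACTA2 and those of 4 other contractile genes are shown because they hold CArG boxes or near matches to one. A CArG box was searched as CC, 6 bases that are A or T, and GG, and a CArG-like box may have 1 G or C among those 6 bases. Both are named here as letter patterns only, and a match does not show that SRF binds there. Each stretch is from RefSeq on build GRCh38.p14, is written 5′ to 3′ on the strand of the gene, and has the box in capitals: ACTA2 at chr10:88952790-88952939 (minus strand, 2 CArG-like boxes), CNN2 at chr19:1026474-1026573 (plus strand, CArG box), CALD1 at chr7:134711428-134711498 (plus strand, CArG-like box), ACTN1 at chr14:68977683-68977782 (minus strand, CArG box) and FLNA at chrX:154374674-154374773 (minus strand, CArG box).
ACTA2: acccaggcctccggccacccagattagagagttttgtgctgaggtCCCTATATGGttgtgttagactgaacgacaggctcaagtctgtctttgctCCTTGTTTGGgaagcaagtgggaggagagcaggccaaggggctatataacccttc
CNN2: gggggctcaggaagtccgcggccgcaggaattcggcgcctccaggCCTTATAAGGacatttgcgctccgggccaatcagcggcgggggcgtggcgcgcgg
CALD1: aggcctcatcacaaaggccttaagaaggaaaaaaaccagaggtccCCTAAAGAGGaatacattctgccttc
ACTN1: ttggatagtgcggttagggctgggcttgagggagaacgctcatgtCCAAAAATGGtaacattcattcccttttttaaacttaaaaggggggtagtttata
FLNA: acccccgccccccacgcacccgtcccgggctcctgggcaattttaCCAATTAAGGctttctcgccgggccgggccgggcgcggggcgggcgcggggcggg

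ACTA2, CALD1 and ACTN1 each have more than 1 RefSeq start, and their boxes were found in the window of 1 of them. Counted from that start, the boxes of ACTA2 began 121 and 71 bases before it, that of CALD1 26 bases before and that of ACTN1 171 bases before. The box of CALD1 belongs to a start upstream of the GENCODE 29 gene span given for it here. The box of CNN2 began 89 bases before its start and that of FLNA 94 bases before. RefSeq windows from 250 bases before to 50 bases after a start were found for 8 of the 10 genes, in 16 windows, and TAGLN and MYL9 were not matched. A CArG box was present for 3 of these 8 genes and for 1.60% of the 27305 genes with a window, and a CArG-like box for 2 of the 8 and 8.46% of all. The 8 genes had more windows per gene than all genes, which had 35116 windows. Per window, a CArG box was present in 3 of 16 and in 1.29% of all. A CArG-like box was present in 2 of 16 windows and in 6.94% of all. Neither pattern was found in the windows of TPM1, which also rose. Over the tested genes with a CArG box (185), 37.8% were called higher and the median log2 fold change was 0.03, against 34.2% and -0.02 over the 12001 tested genes with a window. Over the 988 tested genes with a CArG-like box, the only kind found for ACTA2 and CALD1, these values were 34.6% and -0.03.

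Matches to motifs of other factors were also counted on both strands. The letters GGAATG, bound by TEAD factors, were found for ACTA2, CALD1 and ACTN1, and for 16.7% of all genes with a window. The short SMAD element CAGAC was found for 5 of the 8 genes, ACTA2, CNN1, TPM1, CALD1 and ACTN1, and for 50.0% of all. Per window, GGAATG was present in 4 of 16 and in 14.0% of all, and CAGAC in 11 of 16 and in 45.3% of all. Neither motif overlapped a CArG box or CArG-like box.

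**Figure D2:**
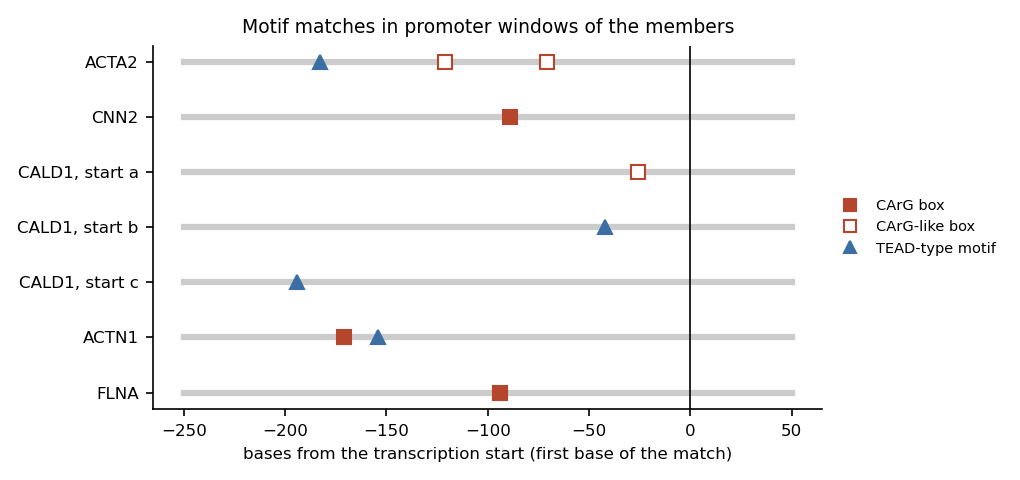
Positions of CArG boxes (filled squares), CArG-like boxes (open squares) and the TEAD-type motif (triangles) in the promoter windows that hold at least 1 of them, as the distance in bases from the transcription start (vertical line) to the first base of the match. CALD1 has matches at 3 of its starts (a, b and c), and the boxes of ACTA2, CNN2 and FLNA lie between 121 and 71 bases before the start.

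Of 5 tested actin genes 3 rose, 1 fell and 1 did not pass, where 34.0% of all tested genes were called higher and 35.6% lower. Over the alternative fits 2 to 4 actin genes were called higher. ACTB, which encodes cytoplasmic beta-actin, averaged 7093 ± 59.4 CPM in shMEX3A and 6077 ± 25.1 CPM in shCtrl and rose slightly (log2 fold change 0.22, adjusted p = 2.10e-08). ACTG1, which encodes cytoplasmic gamma-actin, fell to 2712 ± 45.1 CPM in shMEX3A, against 4184 ± 47.7 CPM in shCtrl (log2 fold change -0.63, adjusted p = 9.83e-21). Cardiac actin, ACTC1, rose (log2 fold change 1.81, adjusted p = 1.06e-05) at under 1 CPM in every library. It had 25 to 39 counts in the shMEX3A libraries and 8 to 10 in shCtrl, and was not tested where at least 1 CPM in 3 libraries was required. The smooth muscle gamma-actin gene ACTG2 was also under 1 CPM in every library and did not pass (log2 fold change 0.73, adjusted p = 0.0928), and with single libraries left out it ran from 0.41 (adjusted p = 0.407, without shCtrl replicate 3) to 1.11 (adjusted p = 0.0356, without shCtrl replicate 2). These actin genes are nearly alike in their coding sequence and have processed copies in the genome, so the split of reads between them is uncertain.

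Per kilobase of exon, ACTA2 made up 2.86%, 3.06% and 2.88% of the summed actins in the shMEX3A libraries, against 0.957%, 0.861% and 0.873% in shCtrl. The groups were fully apart, and the difference was 2.04 percentage points (exact permutation p = 0.1, the smallest possible). Over the same libraries ACTB held 67.0% ± 0.213 in shMEX3A and 54.8% ± 0.362 in shCtrl, and ACTG1 held 30.1% ± 0.205 in shMEX3A and 44.3% ± 0.393 in shCtrl (SD, n = 3 each). The summed level of the actin list was 9998 to 10182 CPM in shMEX3A and 10324 to 10370 CPM in shCtrl. Smooth muscle actin was thus a larger share of an actin pool whose summed level was slightly lower in every shMEX3A library.

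TAGLN encodes transgelin, also called SM22, a small actin-binding protein that gathers filaments into bundles, and lies at chr11:117199321-117204782 on the plus strand. It was at 19.1, 21.8 and 24.2 CPM in the shMEX3A libraries, against 8.80, 8.12 and 7.53 CPM in shCtrl. No library of one group reached the other, and the spread was wider in shMEX3A (21.7 ± 2.54 CPM, against 8.15 ± 0.637 CPM in shCtrl). TAGLN rose 2.65-fold (log2 fold change 1.40, SE 0.081, adjusted p = 1.47e-14). PCSK7, a protease gene on the opposite strand, covers 11.4% of its exon bases and moved the same way (83.2 ± 5.53 CPM in shMEX3A and 42.4 ± 1.95 CPM in shCtrl, log2 fold change 0.97, adjusted p = 9.80e-17), and its part in the reads counted for TAGLN was not tested. The relative TAGLN2, the more abundant of the pair per kilobase, rose less (log2 fold change 0.16, adjusted p = 2.67e-05). The share of TAGLN in the summed transgelins was 4.86% ± 0.526 in shMEX3A and 2.10% ± 0.164 in shCtrl (exact permutation p = 0.1).

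CNN1 encodes basic calponin of smooth muscle, and CNN2 a calponin found in many cell types. CNN1, at chr19:11538717-11550323 on the plus strand, had 5, 12 and 6 counts in the shMEX3A libraries, against 14, 8 and 9 counts in shCtrl. The groups overlapped, and these counts were too low for a test. In a fit with no filter on low counts its log2 fold change was -0.48 (SE 0.54, adjusted p = 0.498), so these counts do not decide whether CNN1 changed.

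CNN2, at chr19:1026581-1039068 on the plus strand, was at 472, 470 and 486 CPM in the shMEX3A libraries, against 302, 311 and 309 CPM in shCtrl. All shMEX3A libraries were higher than all shCtrl libraries, and the libraries of a group were close to each other. CNN2 rose 1.55-fold (log2 fold change 0.63, SE 0.029, adjusted p = 6.53e-21). CNN3, which encodes acidic calponin, rose less (log2 fold change 0.29, adjusted p = 2.02e-10), and its value was 0.46 in a fit corrected for GC content and length. CNN2 made up 67.2% ± 0.133 of the summed calponins in shMEX3A and 61.7% ± 0.583 in shCtrl, and CNN1 under 0.1% in every library.

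Tropomyosins are coiled-coil proteins that run along the groove of the filament, and their genes give muscle and non-muscle isoforms by alternative splicing that counts per gene do not separate. TPM1, at chr15:63042632-63071915 on the plus strand, was at 591, 618 and 596 CPM in the shMEX3A libraries, against 517, 499 and 489 CPM in shCtrl. The groups did not overlap, but the step between them was small beside that of ACTA2. TPM1 rose 1.20-fold (log2 fold change 0.26, SE 0.030, adjusted p = 8.45e-10). Exons of TPM1-AS and AC079328.2 on the opposite strand cover 21.4% of its exon bases.

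TPM2, at chr9:35681992-35690121 on the minus strand, was at 148, 155 and 147 CPM in the shMEX3A libraries, against 172, 154 and 150 CPM in shCtrl. The groups overlapped, with shCtrl replicate 1 apart from the rest. Its log2 fold change was -0.08 (SE 0.042, adjusted p = 0.0924). It passed as lower with shCtrl replicate 3 left out (-0.13, adjusted p = 0.00493) and with no filter on low counts (-0.09, adjusted p = 0.0130), and was at -0.02 (adjusted p = 0.611) with shCtrl replicate 1 left out. The non-muscle tropomyosin genes TPM3 (log2 fold change 0.10, adjusted p = 0.00390) and TPM4 (0.26, adjusted p = 2.64e-08) rose, and TPM3 was at 0.16 after the correction for GC content and length.

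Within the summed tropomyosins per kilobase of exon, TPM1 held 20.6% ± 0.135 in shMEX3A and 19.0% ± 0.305 in shCtrl, and TPM2 held 20.4% ± 0.0944 in shMEX3A and 23.8% ± 0.729 in shCtrl (SD, n = 3 each). The 3 shMEX3A libraries gave TPM2 shares of 20.3%, 20.5% and 20.3%, against 24.6%, 23.6% and 23.1% in shCtrl. TPM2 was thus a smaller share of the family in each shMEX3A library, by 3.39 percentage points on average (exact permutation p = 0.1, the smallest possible), even though its level in CPM overlapped between the groups.

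CALD1 encodes caldesmon, which binds actin, myosin and calmodulin and restrains the motor on the thin filament. The gene lies at chr7:134744252-134970728 on the plus strand. It was at 126, 125 and 122 CPM in the shMEX3A libraries, against 98.5, 97.9 and 95.4 CPM in shCtrl, with the groups well apart. CALD1 rose 1.28-fold (log2 fold change 0.36, SE 0.034, adjusted p = 5.08e-12). Of 7 other tested genes in the thin-filament list 5 rose and 1 fell, beside 34.0% of all tested genes called higher and 35.6% lower. Over the alternative fits the number called lower in this list ran from 0 to 2. SYNPO2 (15.2 ± 0.755 CPM in shMEX3A and 4.07 ± 0.358 CPM in shCtrl, log2 fold change 1.91, adjusted p = 2.03e-21) and SYNPO (25.4 ± 1.13 CPM in shMEX3A and 7.40 ± 0.668 CPM in shCtrl, 1.78, adjusted p = 3.19e-23), which encode the actin-bundling synaptopodins, rose, with larger values than CALD1. TMOD1, which encodes a tropomodulin that caps pointed filament ends, fell at under 1 CPM (log2 fold change -1.17, adjusted p = 0.00635) and did not pass with shCtrl replicate 3 left out (-0.94, adjusted p = 0.0652).

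ACTN1 encodes the alpha-actinin that crosslinks filaments in stress fibres and at focal adhesions, and lies at chr14:68874143-68979440 on the minus strand. It was at 686, 694 and 708 CPM in the shMEX3A libraries, against 296, 300 and 291 CPM in shCtrl. The gap between the groups was many times the spread within either. ACTN1 rose 2.35-fold (log2 fold change 1.23, SE 0.030, adjusted p = 4.58e-30), the smallest adjusted p of the contractile genes. Its relative ACTN4, the more abundant alpha-actinin per kilobase, rose less (1670 ± 42.0 CPM in shMEX3A and 1301 ± 29.4 CPM in shCtrl, log2 fold change 0.36, adjusted p = 1.85e-13), and was at 0.14 after the correction for GC content and length. ACTN1 made up 19.3% ± 0.210 of the summed alpha-actinins in shMEX3A and 11.5% ± 0.0963 in shCtrl (exact permutation p = 0.1), the widest step in share among the contractile genes. The muscle gene ACTN2 had at most 10 counts in any library, and ACTN3 had 0 counts in all of them.

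FLNA encodes filamin A, a long flexible protein that joins filaments at wide angles and anchors them to membrane receptors, and lies at chrX:154348524-154374638 on the minus strand. It was at 7854, 8104 and 8082 CPM in the shMEX3A libraries, against 4830, 5234 and 5022 CPM in shCtrl. Each shMEX3A library was above each shCtrl library. FLNA rose 1.59-fold (log2 fold change 0.67, SE 0.032, adjusted p = 1.14e-20). Its longest transcript has 62.2% GC, and its log2 fold change was 0.39 (adjusted p = 8.49e-17) after the correction for GC content and length. FLNC, the filamin of striated muscle, rose more (64.6 ± 0.484 CPM in shMEX3A and 27.2 ± 0.743 CPM in shCtrl, log2 fold change 1.25, adjusted p = 2.63e-25).

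**Figure D3:**
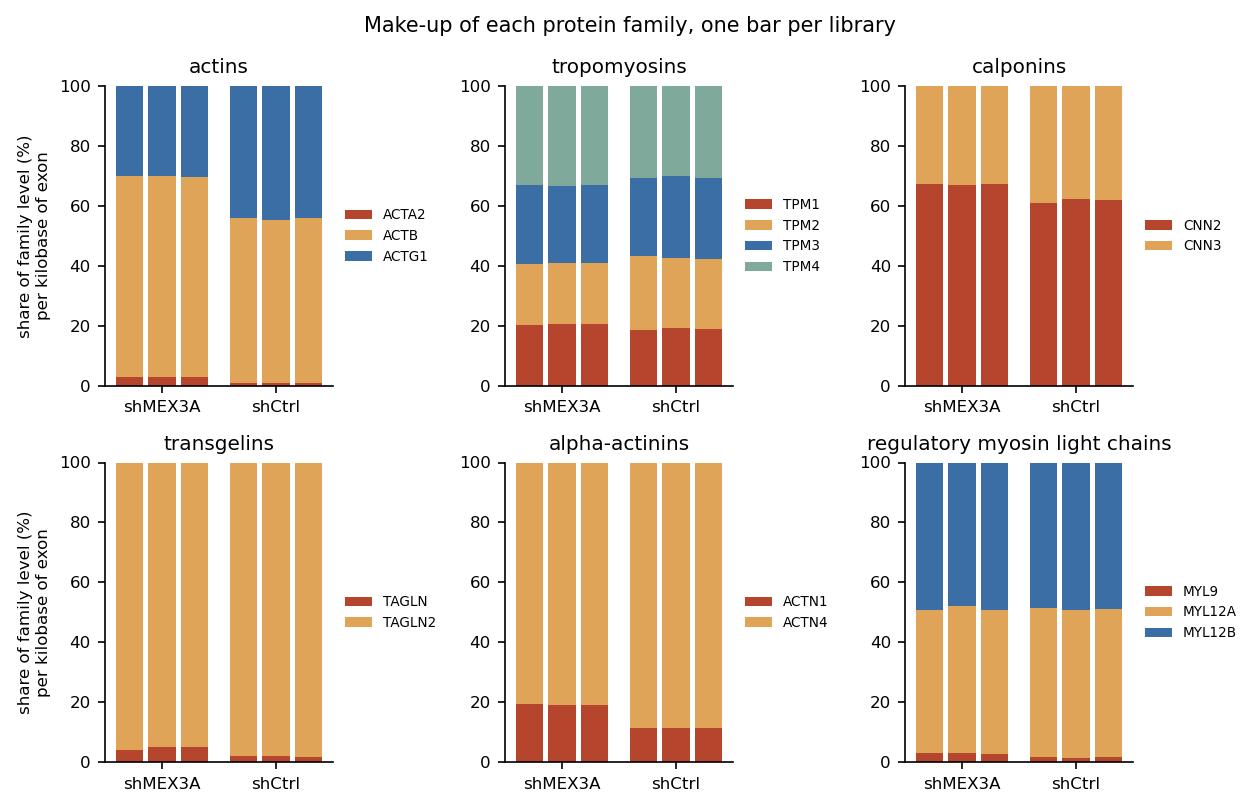
Share of each gene in the summed level of its protein family in percent, per kilobase of exon, with 1 bar per library, shMEX3A on the left and shCtrl on the right (relatives too low to be visible are not drawn). ACTA2, TAGLN and ACTN1 take a larger share in every shMEX3A library, as does MYL9 among the regulatory myosin light chains, and TPM2 a smaller one.

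MYL9 encodes a regulatory light chain of myosin II typical of smooth muscle, and lies at chr20:36541484-36551447 on the plus strand. It was at 23.3, 23.9 and 21.9 CPM in the shMEX3A libraries, against 14.2, 12.8 and 13.7 CPM in shCtrl, and the groups did not overlap. MYL9 rose 1.70-fold (log2 fold change 0.76, SE 0.062, adjusted p = 8.38e-14). The non-muscle light chain genes MYL12A (log2 fold change -0.17, adjusted p = 1.13e-05) and MYL12B (-0.14, adjusted p = 0.000121) fell slightly. After the correction for GC content and length neither passed, and MYL12A changed sign (0.04, adjusted p = 0.140, and -0.01, adjusted p = 0.720, for MYL12B). These light chain genes are near copies of each other, so the split of reads between them is uncertain. MYL9 made up 3.09% ± 0.127 of the summed regulatory light chains in shMEX3A and 1.66% ± 0.0379 in shCtrl (exact permutation p = 0.1).

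The essential light chain genes MYL6 (log2 fold change -0.04, adjusted p = 0.2001) and MYL6B (0.07, adjusted p = 0.109) did not pass, though MYL6B passed with shCtrl replicate 1 left out (0.12, adjusted p = 0.00780) and among genes with at least 1 CPM in 3 libraries (0.09, adjusted p = 0.0447), and was at 0.0021 (adjusted p = 0.960) after the correction for GC content and length. Of the heavy chains of myosin II, MYH9 rose (57.2 ± 0.394 CPM in shMEX3A and 39.7 ± 0.718 CPM in shCtrl, log2 fold change 0.53, adjusted p = 1.67e-14), and was at 0.29 after that correction. MYH14 also rose (9.75 ± 0.294 CPM in shMEX3A and 4.30 ± 0.337 CPM in shCtrl, log2 fold change 1.18, adjusted p = 3.43e-14). MYH10 fell (303 ± 7.14 CPM in shMEX3A and 387 ± 16.5 CPM in shCtrl, log2 fold change -0.35, adjusted p = 1.72e-12). The smooth muscle heavy chain gene MYH11 had 4 to 12 counts in each library and did not pass (-0.43, adjusted p = 0.470).

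**Figure D4:**
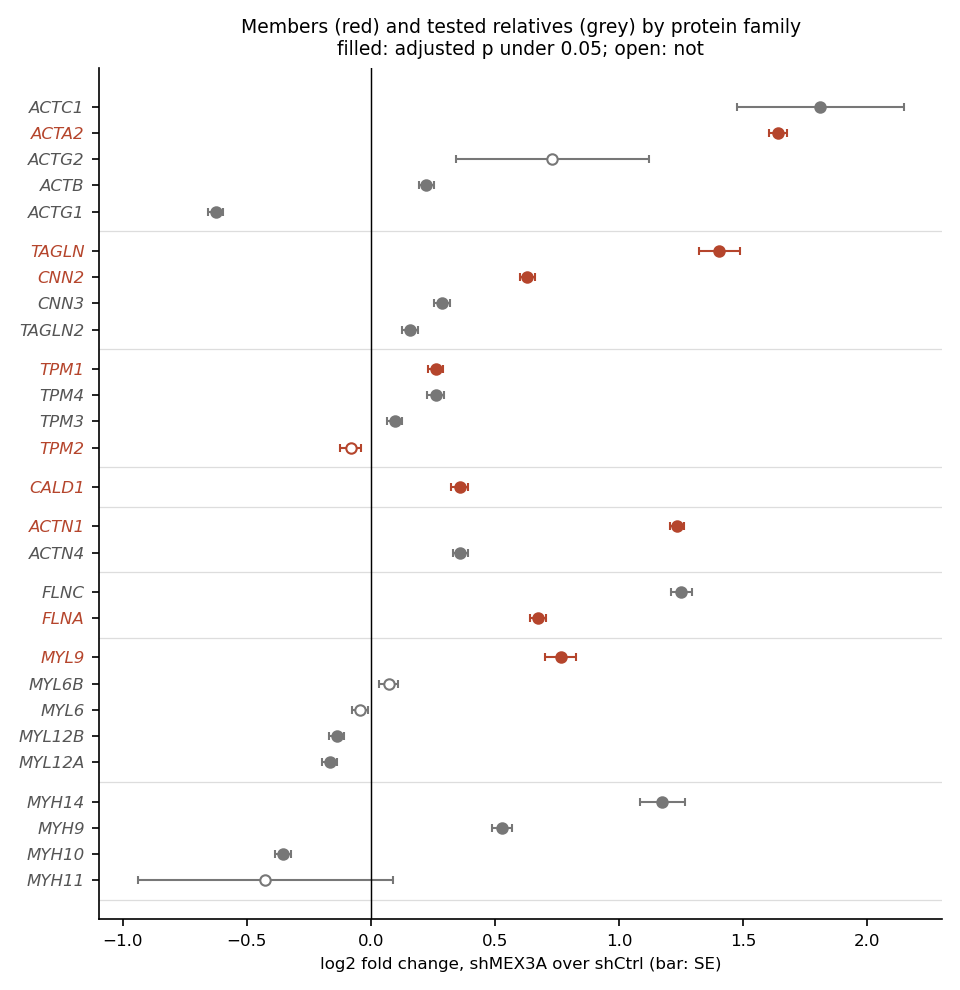
Log2 fold change of shMEX3A over shCtrl with its SE (bars) for the contractile genes (red) and tested relatives in their protein families (grey), filled where the adjusted p was under 0.05 and open where it was not. ACTA2 (1.64), TAGLN (1.40) and ACTN1 (1.23) lie well to the right of ACTB, TAGLN2 and ACTN4, and TPM2 (-0.08) is the only open red point.

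The order of levels among the contractile genes was compared mainly per kilobase of exon. FLNA was the most abundant (757 ± 13.1 CPM per kilobase in shMEX3A and 475 ± 19.0 in shCtrl), followed by CNN2 (131 ± 2.44 in shMEX3A and 84.3 ± 1.26 in shCtrl). ACTA2 was next in shMEX3A at 88.3 ± 2.97 CPM per kilobase, with rank 3, and had rank 5 in shCtrl at 28.3 ± 1.64. ACTN1 followed ACTA2 in both groups, at 65.5 ± 1.06 in shMEX3A and 27.8 ± 0.446 in shCtrl, and in shCtrl this pair did not differ beyond its spread. TPM1 (46.7 ± 1.12) and TPM2 (46.2 ± 1.28) did not differ beyond their spread in shMEX3A, whereas in shCtrl they were above ACTA2 and ACTN1, at 39.0 ± 1.07 for TPM1 and 48.9 ± 3.56 for TPM2. CALD1 (12.7 ± 0.228 in shMEX3A and 9.88 ± 0.165 in shCtrl), MYL9 (8.17 ± 0.355 in shMEX3A and 4.81 ± 0.260 in shCtrl) and TAGLN (5.54 ± 0.650 in shMEX3A and 2.08 ± 0.163 in shCtrl) came next in both groups, and CNN1 was last at 0.0638 in shMEX3A and 0.0889 in shCtrl. Divided instead by the median length of coding transcripts, TPM1 had rank 2 in both groups, and ACTN1 stood above ACTA2 in both. On that scale ACTN1 had rank 3 in shMEX3A and 5 in shCtrl, and ACTA2 had rank 5 in shMEX3A and 6 in shCtrl. CNN2 had rank 4 in shMEX3A and 3 in shCtrl, while FLNA stayed first and CNN1 last. The order between the first and the last gene thus depends on which length is used.

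The other genes of the actomyosin machinery were read from lists by role. Without the contractile genes themselves these lists held 121 tested genes, of which 60 rose, 41 fell and 20 did not pass, with a median log2 fold change of 0.10, beside -0.01 over all tested genes. Over all tested genes 34.0% were called higher and 35.6% lower, and these shares stand beside each list count that follows. The contractile genes had a median of 0.67. Focal adhesion and stress fibre linkers had 19 of 27 tested genes higher and 8 lower (median 0.31), and actin turnover and nucleation genes had 9 of 30 higher and 15 lower (median -0.08). The share of turnover genes called higher was thus near that of all tested genes, while the share called lower, 15 of 30, was above the 35.6% of all. Over the alternative fits, 12 to 16 turnover genes were called lower and 8 to 11 higher.

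Among the linkers, ZYX, which encodes zyxin and binds alpha-actinin, rose (288 ± 14.3 CPM in shMEX3A and 129 ± 3.69 CPM in shCtrl, log2 fold change 1.15, adjusted p = 8.34e-26). PALLD, which encodes the alpha-actinin partner palladin, rose by a like amount (94.6 ± 0.481 CPM in shMEX3A and 44.0 ± 1.63 CPM in shCtrl, log2 fold change 1.10, adjusted p = 4.28e-25). PDLIM7, a PDZ and LIM adaptor of actin filaments (log2 fold change -0.63, adjusted p = 2.04e-17), and TLN2, a talin that links integrins to actin (-0.44, adjusted p = 2.13e-11), fell. The values of ZYX and PALLD were close to that of ACTN1.

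Of the genes that act on myosin light chain phosphorylation 7 of 15 were higher and 6 lower. MYLK, the light chain kinase gene, fell (353 ± 3.42 CPM in shMEX3A and 521 ± 13.9 CPM in shCtrl, log2 fold change -0.56, adjusted p = 3.20e-19), as did the kinase gene DAPK1 (-0.72, adjusted p = 1.05e-22). PPP1R12C, a targeting subunit of myosin phosphatase (0.69, adjusted p = 4.50e-16), and CDC42BPB, a kinase gene downstream of CDC42 (0.37, adjusted p = 2.06e-14, and 0.20 after that correction), rose.

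SRF and the genes listed with it were read because SRF is known to bind CArG boxes, and no binding was measured here. Of 9 tested genes in this list 3 rose, 2 fell and 4 did not pass. The share that rose was near the 34.0% of all tested genes, and the share that fell was below the 35.6% of all. SRF rose (118 ± 4.03 CPM in shMEX3A and 79.1 ± 2.98 CPM in shCtrl, log2 fold change 0.58, adjusted p = 6.76e-17, and 0.35 after that correction), and so did its coactivator MRTFA (114 ± 3.41 CPM in shMEX3A and 81.5 ± 2.84 CPM in shCtrl, 0.48, adjusted p = 1.12e-14, and 0.24 after that correction). PHACTR2, which encodes an actin-binding phosphatase regulator (-0.39, adjusted p = 2.42e-08), and FHL1, a LIM protein gene (-1.20, adjusted p = 0.000313), fell. FHL1 had only 18 to 61 counts in each library. It was not tested where at least 1 CPM in 3 libraries was required, and 1 gene of this list was called lower there. MYOCD, the coactivator myocardin of smooth muscle, had at most 1 count in any library.

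Among the turnover genes, GSN, which encodes the filament-severing gelsolin (log2 fold change 0.53, adjusted p = 1.62e-17), and CAP2, which encodes an adenylyl cyclase-associated actin-binding protein (0.74, adjusted p = 1.35e-18), rose. The formin gene DAAM1 (-0.61, adjusted p = 9.19e-11) and the capping protein gene CAPG (-0.29, adjusted p = 9.84e-10) fell. TMSB10 fell the most (657 ± 11.5 CPM in shMEX3A and 1799 ± 245 CPM in shCtrl, log2 fold change -1.45, adjusted p = 0.000311). It was the only turnover gene called at least 2-fold lower. Of the Arp2/3 complex and its activators 7 of 15 rose and 5 fell (3 after the correction for GC content and length), the lower share being near that of all tested genes, with CTTN, which encodes cortactin (0.46, adjusted p = 3.77e-16), and WASF2 (0.39, adjusted p = 1.16e-13) higher and the complex subunit ARPC3 (-0.94, adjusted p = 8.18e-24) and WASF1 (-1.02, adjusted p = 4.18e-19) lower.

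**Figure D5:**
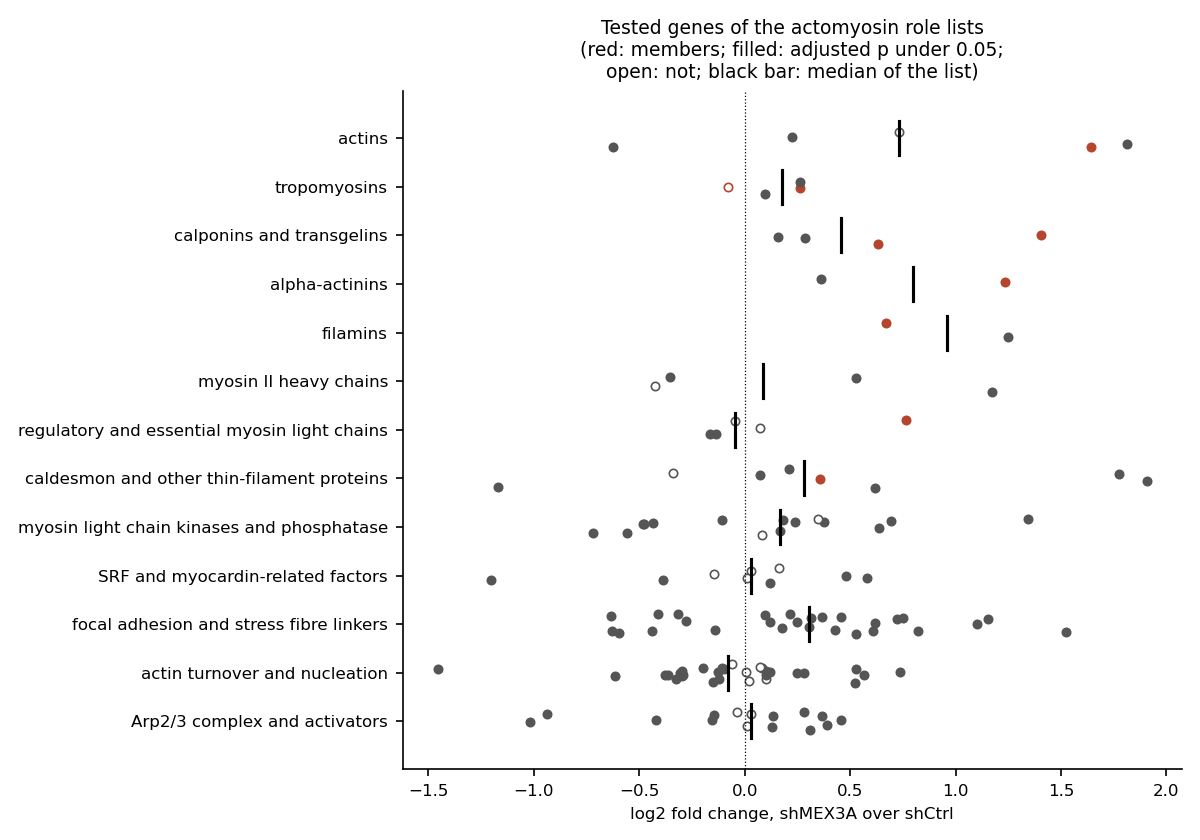
Log2 fold change of shMEX3A over shCtrl for each tested gene of the role lists, with the contractile genes in red, filled points where the adjusted p was under 0.05 and a black bar at the median of each list, contractile genes included. Linkers of focal adhesions lie mostly to the right of 0 (median 0.31), and turnover genes lie on both sides of it (median -0.08).

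Since ACTA2, TAGLN and CNN1 mark smooth muscle cells and myofibroblasts, markers of other cell types were read in the same libraries. Of 12 defining smooth muscle markers 8 were under 1 CPM in every library, and CASQ2 and PLN had 0 counts. SMTN (log2 fold change 0.62, adjusted p = 3.89e-14, and 0.38 after the correction for GC content and length) rose, SYNM fell (-0.34, adjusted p = 1.68e-07), and DES, at under 5 CPM, did not pass (-0.07, adjusted p = 0.571). The summed level of this list, which holds CNN1 and the SYNPO2 and ACTG2 of the lists above, was 84.6 to 87.6 CPM in shMEX3A and 67.9 to 68.9 CPM in shCtrl.

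Of 12 fibroblast markers 8 were under 1 CPM in every library, among them PDGFRA, PDGFRB, FAP and THY1. The collagen genes COL1A1 (log2 fold change 3.16, adjusted p = 1.03e-35) and COL1A2 (1.00, adjusted p = 1.78e-27) rose, as did DCN, the decorin gene (0.90, adjusted p = 7.41e-11), while FBLN1, the fibulin gene, fell (-1.05, adjusted p = 1.35e-17). The fibroblast list summed to 1263 to 1300 CPM in shMEX3A and 615 to 629 CPM in shCtrl, most of it COL1A2. Pericyte markers summed to 145 to 150 CPM in shMEX3A and 188 to 193 CPM in shCtrl, with 3 of 8 under 1 CPM and, of 5 tested, 2 higher and 2 lower. NOTCH3 (-1.27, adjusted p = 4.47e-24) and MCAM (-0.33, adjusted p = 2.19e-09) fell, while RGS5 (0.17, adjusted p = 0.000187, and 0.28 after the correction for GC content and length) and NDUFA4L2 (1.35, adjusted p = 0.000423) rose. NDUFA4L2 had only 10 to 39 counts in each library. Of 10 endothelial markers 9 were under 1 CPM in every library, and the list summed to 10.1 to 11.3 CPM in shMEX3A and 5.46 to 5.56 CPM in shCtrl. Most of this sum was TIE1 (9.83 ± 0.535 CPM in shMEX3A and 4.41 ± 0.0339 CPM in shCtrl). Of 4 tested endothelial genes, TIE1 included, 2 were higher and 1 lower. Of 12 leukocyte markers 10 were under 1 CPM in every library, and the list summed to 10.7 to 11.1 CPM in shMEX3A and 7.64 to 8.72 CPM in shCtrl. Most of that sum was CD68 (log2 fold change 0.27, adjusted p = 0.00623), followed by ITGAM (1.60, adjusted p = 6.72e-08), the only 2 tested genes of the list. The epithelial list had 4 of 9 tested genes higher and 2 lower, and its sum of 563 to 577 CPM in shMEX3A and 387 to 397 CPM in shCtrl was mostly the keratin genes KRT8 (log2 fold change 0.55, adjusted p = 6.60e-19) and KRT18 (0.71, adjusted p = 2.99e-21). KRT7 (0.91, adjusted p = 0.000120) and MUC1, a mucin gene (1.12, adjusted p = 5.84e-05), also rose, whereas CDH1, the E-cadherin gene (-1.43, adjusted p = 1.13e-10), and CLDN3, a claudin gene (-1.26, adjusted p = 3.92e-18), fell. The part of these lists in the rise of the contractile genes was not tested.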

How the data were processed

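Messenger RNA of TOV21G cells was sequenced in 3 shMEX3A and 3 shCtrl libraries. The authors deposited the raw read counts of each gene as 1 table, with a column per library. GRCh38, HTSeq 2.0.4, STAR, fastp 0.20.0 and edgeR 4.0.16 are named in the submitters' processing notes, per the labels. Which annotation and strand setting they counted with is not given in the sources used here.

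The 10 genes and all gene lists were chosen with earlier results of these data known, and no list was tested as a set. The test was the quasi-likelihood F test of edgeR 4.0.16 in R 4.3.3 (filterByExpr, TMM scaling, robust quasi-likelihood fit, 4 residual degrees of freedom, common biological coefficient of variation 3.41%), with Benjamini-Hochberg adjustment over 15679 genes and a threshold of 0.05. Levels are TMM-scaled CPM computed from the counts. Gene models and lengths came from GENCODE 29 (27520 of 42656 symbols matched), and promoter windows from RefSeq. Family shares were compared with a two-sided exact permutation test. Libraries of one group differed by more than sampling noise (chi-square per degree of freedom 2.69 to 6.15), so none was counted as a duplicate. The tests were checked on simulated data with few changed genes, in which the share of false calls lay above the nominal share in each tool, while genes changed 2-fold at well-measured levels were recovered.

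Named genes are MEX3A, the 10 genes, the tested genes of their protein families, and in other role lists the 2 called genes with the smallest p in each direction; of the marker lists, defining genes near 0 and called ones. Some results under this selection are not reported here. Alternatives were other scaling factors, other filters, DESeq2 1.42.0, limma 3.58.1 voom, the replicate number as a block, offsets for GC content and length (splines with 5 degrees of freedom, 14461 genes), leaving out each library, and leaving out mitochondrially encoded genes. Fits without offsets on genes that have a GC value, and shares per coding transcript length were added after seeing the data.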

Additional observations from a re-analysis of the deposited data

How the results depend on the processing

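Over 17 alternatives, each of the 8 contractile genes called higher kept its direction and its call, and 3 were at least 2-fold higher in every alternative. The median log2 fold change of the 9 tested contractile genes, TPM2 included, ran from 0.60 with offsets for GC content and length to 0.70. With no low-count filter TPM2 was called lower (-0.094, adjusted p = 0.0130), so 1 contractile gene was called lower there. With each library left out in turn, TPM2 ran from -0.126 to -0.020 and the number of contractile genes called lower from 0 to 1, the call coming without shCtrl replicate 3 alone. Genes called at least 2-fold higher numbered 707 with at least 1 CPM in 3 libraries, against 1090, where fewer genes were tested. MYL12A changed sign with offsets for GC content and length (0.042), also with the replicate block added (0.042), and the cause was not tested.

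Differences in family share depend on the length used. In percentage points, counts without length gave 1.80 for ACTA2, -1.61 for TPM2, 4.18 for TAGLN and 10.9 for ACTN1. Coding transcript length gave 2.42 for ACTA2, 2.38 for TPM1, -2.08 for TPM2, 5.28 for TAGLN, 8.77 for ACTN1 and 0.821 for MYL9. Per kilobase of exon they were 2.04, 1.63, -3.39, 2.76, 7.75 and 1.43 for ACTA2, TPM1, TPM2, TAGLN, ACTN1 and MYL9. All kept their sign.

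Libraries that share a replicate number did not deviate together (correlations of -0.031, 0.077 and -0.077), so the number was not taken as a pairing. With the replicate block ACTA2 was at 1.64, 5247 genes were called higher and 5504 lower, and 8 contractile genes were called higher. Depth limits CNN1, at 5 to 14 counts per library, and the other genes under 1 CPM. The 3 libraries a group and the single hairpin limit every comparison.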
